A study of Rattus norvegicus with 12 samples.

Results

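The genes examined were 10 markers of the renal stroma, the cells that lie between and around the tubules and vessels: Pdgfra, Pdgfrb, Acta2, Tagln, Dcn, Lum, Postn, Cnn1, Des and Myh11. They were taken by name from a table of 13151 genes measured in rat renal cortex, and all 10 were in it. Expression was read by RNA sequencing in 12 male rats aged 32 weeks, with 4 rats in each of 3 groups. Each value is a normalized read count, that is, reads scaled to the size of the library with a further factor for each rat.

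The ZL group were lean Zucker rats and served as controls. The ZF group were obese Zucker fatty rats, which carry a defective leptin receptor according to the study's methods (the design text of the series calls them leptin-deficient), and they received no drug. The ZF-SGLT2i group were ZF rats that received canagliflozin, an inhibitor of the renal glucose transporter SGLT2, at 10 mg/kg/day in the food for 8 weeks from the age of 24 weeks. Lean rats with canagliflozin were not analysed here, so the drug was measured on the ZF background alone. In the study's methods, lean rats were described only in a cohort that had repeated open wedge biopsies of the kidney. The treated rats came from a separate cohort, for which no biopsy was described. The methods do not state the cohort of the sequenced ZF rats. A part of cohort or biopsy in the differences from ZL cannot be told apart from genotype or treatment and was not tested. The kidneys were perfused with cold saline before the cortex was taken. The number of reads on genes ranged from 8886901 to 12210257 in the ZL rats, from 8824980 to 11191377 in the ZF rats and from 8914666 to 10293049 in the ZF-SGLT2i rats.

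Fibroblasts of the kidney lie in the interstitium and make its collagens and proteoglycans. Pericytes sit on the capillaries, and smooth muscle cells form the wall of arteries and arterioles. Mesangial cells, the contractile cells of the glomerular tuft, share many genes with both. In injury fibroblasts and pericytes can acquire contractile genes such as Acta2 and are then called myofibroblasts. The tissue was whole cortex, so fewer cells of a type and less RNA per cell cannot be told apart.

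The tissue label was compared with defining markers of the cortex. The summed normalized read count of 10 proximal tubule genes was 22789 ± 1251 (SD, n = 4) in ZL, and Lrp2, the endocytic receptor megalin, had the most reads of the list. Uroplakins and Slc14a2, markers of the urothelium and inner medulla, were near 0, with group means of at most 1.41 for any uroplakin and 1.51 for Slc14a2. Aqp4, a water channel in the same list of 6 genes in the table, was not, with means of 59.8, 60.5 and 98.3 in ZL, ZF and ZF-SGLT2i, and it was higher in ZF-SGLT2i than in ZL by 0.76 (SE 0.23, limma adjusted p = 0.025). Markers of skeletal and cardiac muscle, which share desmin and actins with the stroma, were close to absent: the 3 of 9 listed genes in the table (Acta1, Tnnt3 and Actn2) had group means of at most 0.302.

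Acta2 and Des code for a contractile actin and a muscle intermediate filament, and their log2 values followed each other closely from rat to rat once the group means had been removed (r = 0.95). The 250 bases before their annotated starts are therefore shown, from RefSeq on the build GRCr8. The Acta2 stretch is chr1:241172504-241172753 on the minus strand and the Des stretch is chr9:84299376-84299625 on the plus strand. Capitals mark a relaxed CArG box, the element bound by serum response factor, spelled CCNNNNNNGG with at least 5 of the 6 inner letters A or T, which reads alike on both strands.
Acta2: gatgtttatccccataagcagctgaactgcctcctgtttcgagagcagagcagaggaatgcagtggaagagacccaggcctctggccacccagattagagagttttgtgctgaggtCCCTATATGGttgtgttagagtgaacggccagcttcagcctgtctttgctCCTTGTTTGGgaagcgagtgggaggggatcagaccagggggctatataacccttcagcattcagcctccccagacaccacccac
Des: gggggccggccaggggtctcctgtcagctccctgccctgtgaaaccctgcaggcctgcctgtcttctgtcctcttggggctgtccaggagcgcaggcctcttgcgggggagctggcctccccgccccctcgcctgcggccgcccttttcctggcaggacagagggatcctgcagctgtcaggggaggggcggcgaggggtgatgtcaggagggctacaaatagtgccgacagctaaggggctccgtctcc
Acta2 held 2 matches, which began 134 and 84 bases before the start, and Des held none. A promoter was found for 6 of the 10 genes (Pdgfra, Acta2, Lum, Postn, Cnn1 and Des), and of these Acta2 alone had a match, while 8.08% of all 33469 promoters of that length had at least 1. The strict box, with all 6 inner letters A or T, was in 0 of the 6 and in 1.5% of all promoters. A match is a description of the letters, and the letters were chosen after the expression values had been seen.

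The plot of values by rat shows all 10 genes. ZF rats 2 and 4 were the highest of their group in 6 and 4 of the 10 genes, and ZF rat 5 was the lowest in 8. In ZL, rat 3 was the lowest in 7 genes and rat 4 the highest in 6. ZL rat 3 and ZF rat 5 also had the fewest reads of their groups. The values of the 10 genes summed to 430 ± 70.5 (SD, n = 4) in ZL rats, 531 ± 124 in ZF rats and 349 ± 21.9 in treated rats.

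**Figure D1:**
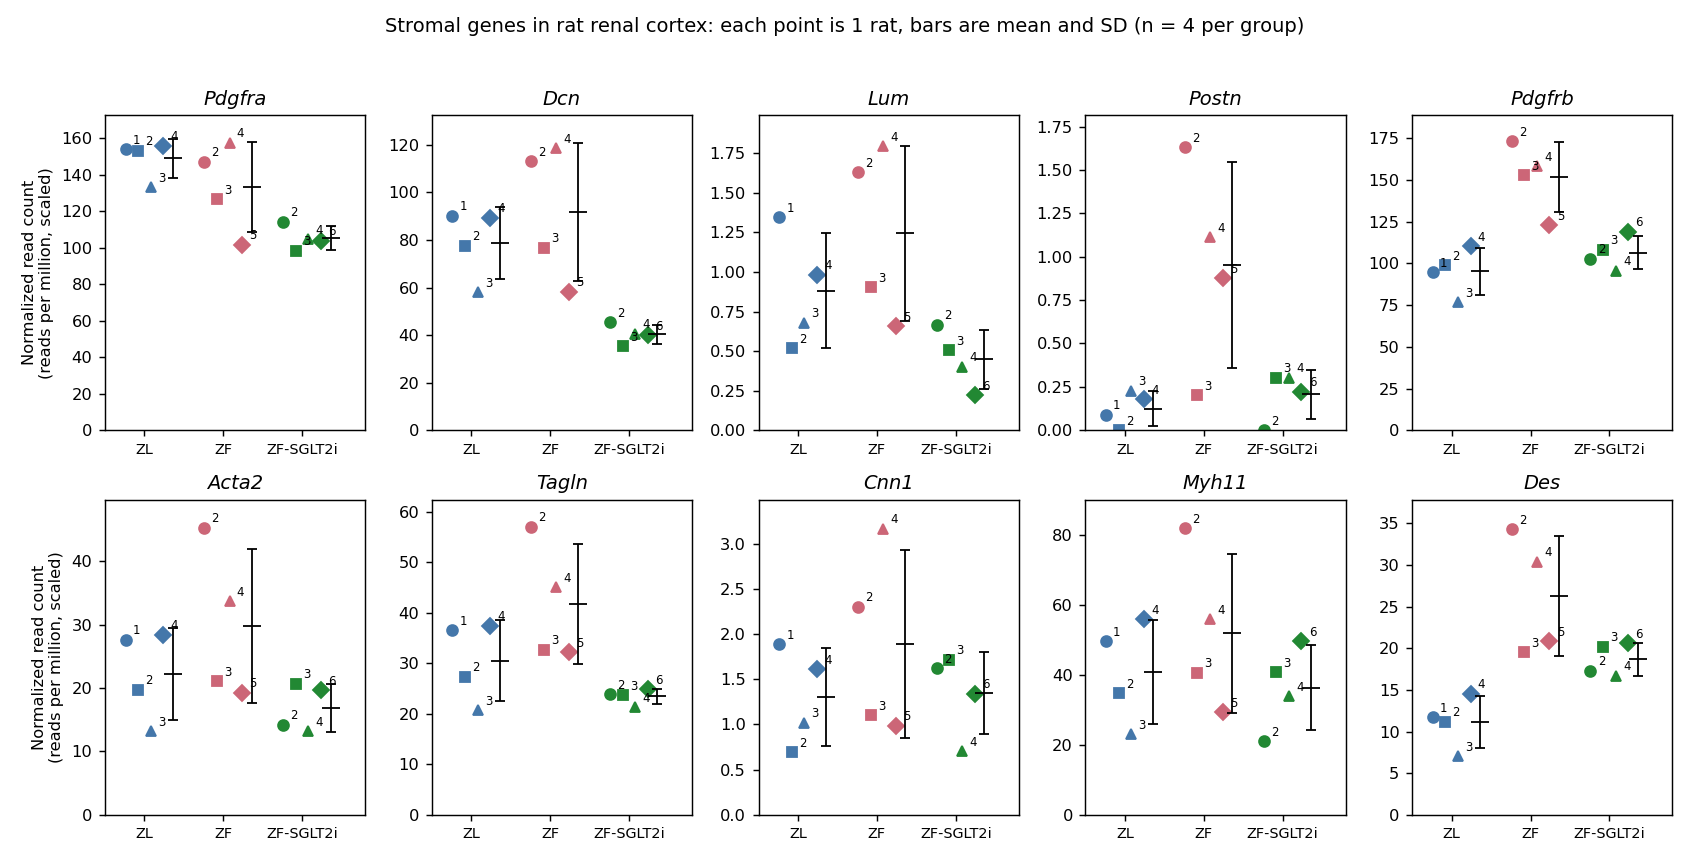
Normalized read counts (vertical axes) of the 10 stromal genes in the 3 groups (horizontal axes). Each point is 1 rat with its number beside it, and bars are the mean and SD of 4 rats. Pdgfrb and Des of every ZF rat lie above every ZL rat, and Dcn of every ZF-SGLT2i rat lies below every rat of the other groups.

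Whether the obese state changed these genes was addressed by ZF against ZL. Pdgfrb, the receptor for PDGF-B on pericytes, mesangial cells and fibroblasts, and Des were higher in ZF, by 1.59 and 2.36 times, and no gene of the set was lower. Of the 10 genes, 8 passed the filter on low values (4 or more of the 12 rats at 1 or above), and Lum and Postn did not. The 2 higher genes compare with 8.19% of all 11633 genes tested that were higher and 10.6% that were lower, at an adjusted p under 0.05 in limma. The same 2 genes had values that did not overlap between the groups, against 19.0% of all genes. The median log2 fold change of the 8 genes was 0.35, and that of all genes tested was -0.01. A log2 fold change here is on the scale of log2(value + 1), which understates changes of genes with low values.

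Whether the inhibitor changed them was addressed by ZF-SGLT2i against ZF. Dcn, Tagln and Pdgfrb were lower in the treated rats, at 0.44, 0.56 and 0.70 times the ZF mean, and no gene of the set was higher. These 3 of 8 compare with 1.75% of all genes that were lower and 1.39% that were higher. The count of called genes was between 1 and 4 when 1 rat was left out. The values of the same 3 genes did not overlap between the groups, against 11.2% of all genes. All 8 log2 fold changes were below 0, with a median of -0.48 against 0.01 over all genes tested. ZF-SGLT2i against ZL then gave 1 gene higher (Des) and 2 lower (Pdgfra and Dcn), where 12.4% of all genes were higher and 15.0% lower. The values of these 3 did not overlap, against 28.0% of all genes. The comparisons share groups of rats and are not independent of each other.

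**Figure D2:**
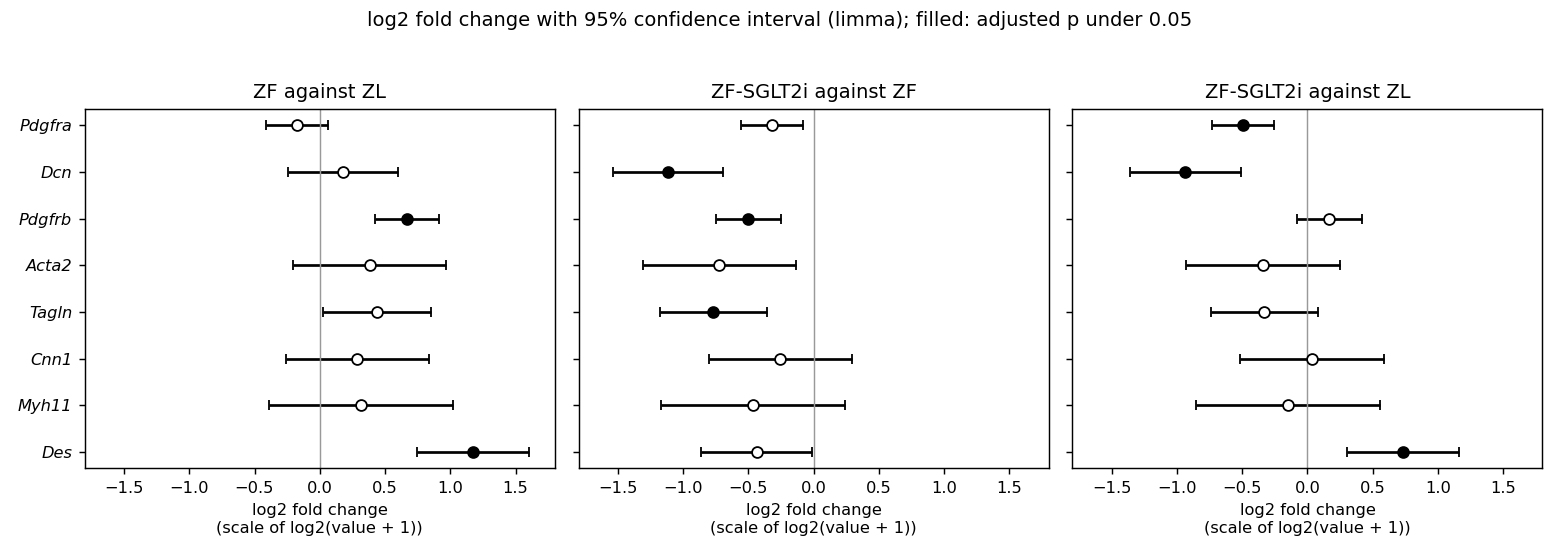
Log2 fold changes (horizontal axes, scale of log2(value + 1)) of the 8 stromal genes that passed the filter, for the 3 comparisons, with the 95% confidence interval of the limma fit. Filled points have an adjusted p under 0.05: Pdgfrb and Des in ZF against ZL, Dcn, Pdgfrb and Tagln in ZF-SGLT2i against ZF, and Pdgfra, Dcn and Des in ZF-SGLT2i against ZL.

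The platelet-derived growth factor (PDGF) receptors are tyrosine kinases that drive growth and migration of mesenchymal cells. PDGF-B from endothelium recruits pericytes and mesangial cells through Pdgfrb, and Pdgfra marks interstitial fibroblasts. Pdgfrb had normalized read counts of 94.7, 98.8, 76.9 and 110.1 in ZL rats 1 to 4. It had 173, 153, 158 and 123 in ZF rats 2 to 5. It had 103, 108, 95.7 and 119 in ZF-SGLT2i rats 2, 3, 4 and 6. Every ZF rat was above every rat of the other groups, and ZL and ZF-SGLT2i overlapped. Pdgfrb rose by 0.67 (SE 0.12) on the log2 scale in ZF against ZL (limma, adjusted p = 0.0022). In ZF-SGLT2i against ZF it fell by 0.50 (SE 0.12, adjusted p = 0.031). ZF-SGLT2i against ZL gave a log2 fold change of 0.17 (95% confidence interval -0.08 to 0.42, adjusted p = 0.31).

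The rise of Pdgfrb in ZF passed the test without any of the 12 rats in turn (adjusted p at most 0.0086). Its fall in ZF-SGLT2i was not called when ZF rat 2 (-0.43, adjusted p = 0.098) was left out, nor without ZF rat 3 (-0.49, 0.085), ZF rat 4 (-0.48, 0.087), or ZF-SGLT2i rats 2 (-0.49, 0.077), 3 (-0.51, 0.082) or 4 (-0.45, 0.093), and it passed in the other 6 fits.

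Pdgfra gave another pattern. Its values were 154, 153, 133 and 156 in the ZL rats and 147, 127, 158 and 102 in the ZF rats. In ZF-SGLT2i they were 114, 98.4, 105 and 104, all below every ZL rat. ZF rats 2, 3 and 4 were above the treated rats, and ZF rat 5 was within their range. Pdgfra fell by 0.50 (SE 0.11) on the log2 scale in ZF-SGLT2i against ZL (limma, adjusted p = 0.0050), and did so without any of the 12 rats in turn (adjusted p at most 0.020). ZF against ZL gave -0.18 (95% confidence interval -0.41 to 0.06, adjusted p = 0.29), and ZF-SGLT2i against ZF gave -0.32 (-0.56 to -0.08, adjusted p = 0.14). Without ZF rat 5 the latter was -0.44 with an adjusted p of 0.010.

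The ratio of Pdgfrb to Pdgfra within a rat, which does not depend on the depth of the library, was computed after these values had been seen and is given without a test. It was 0.636 ± 0.054 (SD, n = 4) in ZL rats, 1.15 ± 0.097 in ZF rats and 1.01 ± 0.13 in treated rats. It ranged from 0.578 to 0.706 in ZL, from 1.00 to 1.21 in ZF and from 0.899 to 1.14 in ZF-SGLT2i, so both ZF groups lay above the ZL rats and overlapped with each other. Since the values are not per length, the ratio compares rats and not the levels of the receptors.

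All 4 PDGF ligand genes in the list (Pdgfa, Pdgfb, Pdgfc and Pdgfd) were tested, and limma and edgeR called 0 in each of the 3 comparisons. Of all genes tested, limma called 8.19% higher and 10.6% lower in ZF against ZL. The shares were 1.39% and 1.75% with treatment, and 12.4% and 15.0% for the treated rats against ZL. At an unadjusted p under 0.05 limma had 1 in ZF against ZL, 2 for ZF-SGLT2i over ZF and 0 for ZF-SGLT2i over ZL, and DESeq2 called 0, 1 and 0. The share of all genes at an unadjusted p is not given here. Pdgfb, which codes for the main ligand of Pdgfrb, had means of 21.7 ± 3.38 (SD, n = 4) in ZL rats, 26.3 ± 2.40 in ZF rats and 19.0 ± 2.91 in treated rats. Its log2 fold change in ZF-SGLT2i against ZF was -0.46 (SE 0.12, limma adjusted p = 0.058). Pdgfa, at 8.81, 9.14 and 7.49, and Pdgfc, at 17.3, 16.7 and 15.2, had log2 fold changes between -0.25 and 0.04. Pdgfd had the lowest read counts of the ligands, with means of 2.04, 2.88 and 2.82.

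Among the 8 genes tested, Des had the highest log2 fold change in ZF against ZL. Its values were 11.8, 11.2, 7.03 and 14.6 in the ZL rats, 34.3, 19.5, 30.4 and 20.9 in the ZF rats, and 17.3, 20.2, 16.7 and 20.6 in the ZF-SGLT2i rats. Each ZF and each ZF-SGLT2i rat was above each ZL rat, while ZF rat 3 lay within the treated range. Des rose by 1.17 (SE 0.20) on the log2 scale in ZF against ZL (limma, adjusted p = 0.0020) and was higher by 0.73 (SE 0.20, adjusted p = 0.015) in ZF-SGLT2i against ZL. Both held without any of the 12 rats in turn, with adjusted p of at most 0.0067 and 0.046. In ZF-SGLT2i against ZF the log2 fold change was -0.44 (95% confidence interval -0.86 to -0.01, adjusted p = 0.28). Des is known in the kidney from mesangial cells, vascular smooth muscle and stressed podocytes, and the source of its reads was not tested.

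Tagln, which codes for the actin-binding protein transgelin, was lower in the treated rats. It had 36.5, 27.3, 20.6 and 37.4 in the ZL rats and 57.0, 32.7, 45 and 32.1 in the ZF rats. In ZF-SGLT2i it had 23.9, 23.6, 21.3 and 24.9, all below the ZF rats and within the range of the ZL rats. The 4 treated rats were close together, with an SD of 1.49 against 11.8 in ZF and 7.99 in ZL. Tagln fell by 0.77 (SE 0.19) on the log2 scale in ZF-SGLT2i against ZF (limma, adjusted p = 0.044). The adjusted p was between 0.050 and 0.125 in 9 of the 12 fits that left out a rat, namely those without ZL rats 1 (0.0503) or 2 (0.054), ZF rats 2 (0.12), 3 (0.055) or 4 (0.125), or any 1 of the treated rats (0.086, 0.107, 0.115 and 0.091), and the log2 fold change lay between -0.88 and -0.61 throughout. ZF against ZL gave 0.44 (SE 0.19, adjusted p = 0.13).

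Acta2, the smooth muscle actin that also marks myofibroblasts, did not pass the test in any comparison. It had 27.6, 19.8, 13.2 and 28.4 in the ZL rats, 45.3, 21.0, 33.7 and 19.2 in the ZF rats, and 14.2, 20.7, 13.2 and 19.6 in the ZF-SGLT2i rats. All 3 groups overlapped, with ZF rats 2 and 4 above every other rat. The log2 fold change was 0.38 (95% confidence interval -0.20 to 0.97) for ZF over ZL and -0.72 (-1.31 to -0.14, limma adjusted p = 0.18) in ZF-SGLT2i against ZF. The actins have near-identical coding sequences, so the split of reads between Acta2 and Actg2, Acta1 or other actins is uncertain.

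Myh11, the smooth muscle myosin heavy chain, ranged from 23.1 to 56.0 in ZL, from 29.3 to 82.0 in ZF and from 21.0 to 49.7 in ZF-SGLT2i, and the 3 groups overlapped. Its log2 fold change was 0.31 for ZF over ZL and -0.47 for ZF-SGLT2i over ZF, with intervals from -0.39 to 1.02 and from -1.17 to 0.24. Cnn1, which codes for the contractile protein calponin, had 7 to 37 reads in a rat. Its group means were 1.3 ± 0.54 (SD, n = 4), 1.89 ± 1.04 and 1.34 ± 0.46, and no difference was detectable at this depth.

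Within a rat, Des over Acta2 came to 0.510 ± 0.060 (SD, n = 4) in ZL rats, 0.919 ± 0.13 in ZF rats and 1.13 ± 0.14 in treated rats. The highest ZL rat, at 0.566, was below the lowest ZF rat, at 0.758, and ZF overlapped with ZF-SGLT2i, which ranged from 0.976 to 1.27. This ratio was also chosen after the values had been seen and carries no test.

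Genes linked to actin signaling were given as a list of 16 symbols, some of them older and newer symbols of the same gene. The 9 found in the table all passed the filter. In ZF against ZL limma called 1 higher and 0 lower, with treatment 0 and 1, and for the treated rats against ZL 3 and 0. In ZF against ZL edgeR and DESeq2 each called 2 of the 9. Of all genes tested, 8.19% and 10.6%, 1.39% and 1.75%, and 12.4% and 15.0% were higher and lower in these comparisons. The transcription factor Srf had 63.8 ± 4.95 (SD, n = 4) in ZL rats, 70.5 ± 2.87 in ZF rats and 63.4 ± 2.52 in treated rats, with no call in limma. Its smooth muscle coactivator Myocd was near the filter, with means of 0.946, 0.972 and 1.13. Vcl, which links actin to adhesion sites, fell by 0.29 (SE 0.051) in ZF-SGLT2i against ZF (limma, adjusted p = 0.0083), with 149, 147, 144 and 133 in the ZF rats and 122, 115, 112 and 117 in the treated rats. Ankrd1, a target of the Yap1 coactivator, rose by 0.58 (SE 0.13, adjusted p = 0.0088) in ZF against ZL from a mean of 1.39 to 2.60. Ankrd1, Ctgf and Tead1 were higher in ZF-SGLT2i than in ZL, by 0.49, 0.49 and 0.28 on the log2 scale.

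Dcn, which codes for decorin, a small proteoglycan that binds collagen fibrils, had the lowest log2 fold change with treatment among the 8 genes tested. Its values were 90.3, 77.7, 57.9 and 89.4 in the ZL rats and 113, 76.8, 119 and 58.3 in the ZF rats. The treated rats had 45.4, 35.2, 40.6 and 39.9. All 4 treated rats were below all 8 other rats, and the ZL and ZF rats overlapped. Dcn fell by 1.11 (SE 0.20) on the log2 scale in ZF-SGLT2i against ZF (limma, adjusted p = 0.0083) and by 0.94 (SE 0.20, adjusted p = 0.0038) in ZF-SGLT2i against ZL. Both passed the test without any of the 12 rats in turn, with adjusted p of at most 0.035 and 0.015. The exact permutation test over 4 against 4 rats gave p = 0.0286 for each, the smallest it can give. ZF against ZL gave 0.18 (95% confidence interval -0.24 to 0.60).

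Within a rat, Dcn over Pdgfra came to 0.525 ± 0.069 (SD, n = 4) in ZL rats, 0.675 ± 0.10 in ZF rats and 0.382 ± 0.017 in treated rats. It ranged from 0.358 to 0.398 in the treated rats and from 0.435 upward in the other 8. Dcn was thus lower relative to Pdgfra as well as relative to all reads, as a description of ratios chosen after the values had been seen.

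**Figure D3:**
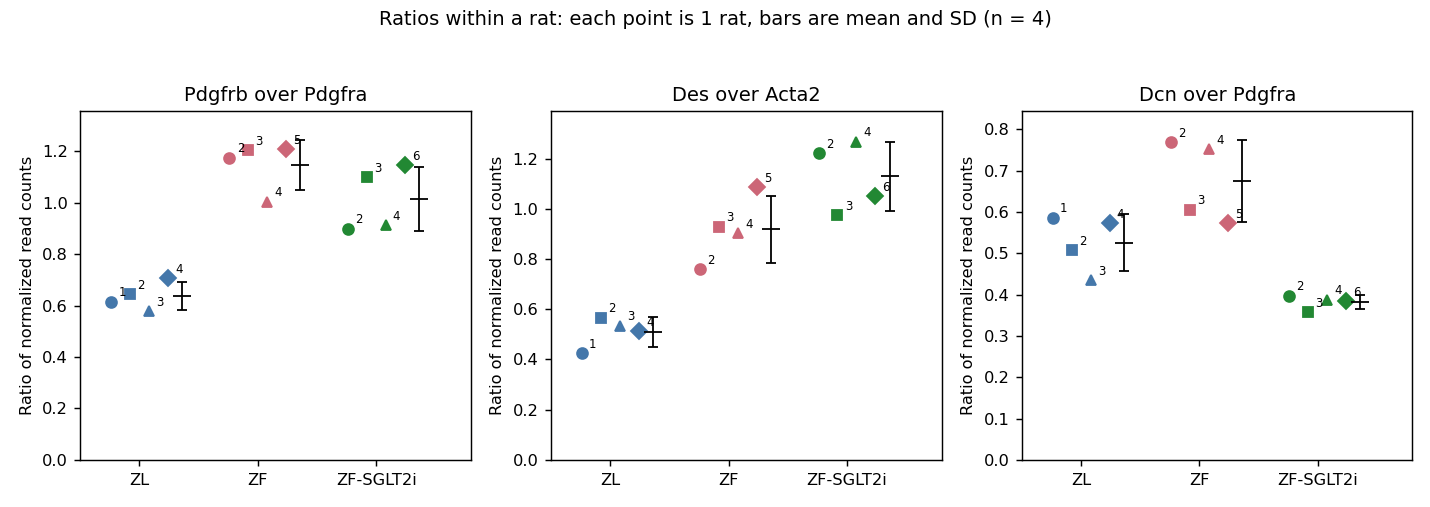
Ratios of normalized read counts within a rat (vertical axes) in the 3 groups (horizontal axes) for Pdgfrb over Pdgfra, Des over Acta2 and Dcn over Pdgfra. Each point is 1 rat with its number, and bars are the mean and SD of 4 rats. The first and second ratios of every ZL rat lie below both other groups, and the third is lowest in the 4 treated rats.

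Lum, the proteoglycan lumican, lies next to Dcn in the genome and had 2 to 21 reads in a rat. Its values were 1.35, 0.520, 0.680 and 0.983 in the ZL rats, 1.63, 0.902, 1.79 and 0.656 in the ZF rats, and 0.666, 0.505, 0.402 and 0.223 in the treated rats. Exact permutation tests gave p = 0.0571 for ZF-SGLT2i against ZF and against ZL (two-sided), where 0.0286 is the smallest possible. ZF rat 5, at 0.656, fell within the treated range.

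Postn, which codes for periostin, a matrix protein seen in kidney injury, had 0 to 17 reads in a rat. It had 0.0897, 0, 0.227 and 0.179 in the ZL rats, 1.63, 0.200, 1.11 and 0.874 in the ZF rats, and 0, 0.303, 0.302 and 0.223 in the treated rats. ZF rats 2, 4 and 5 were above every other rat, with 17, 13 and 8 reads against at most 3 elsewhere, and ZF rat 3 was not, with 2. The exact permutation test gave p = 0.0571 for ZF against ZL and p = 0.114 for ZF-SGLT2i against ZF. In the fit without a filter on low values Postn was higher in ZF against ZL (limma, log2 fold change 0.75, adjusted p = 0.019).

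Other fibroblast genes were read from a list of 34 symbols, with 28 found in the table and 26 past the filter. In ZF against ZL 12 were higher and 0 lower, with a median log2 fold change of 0.43, where 8.19% and 10.6% of all genes tested were higher and lower and their median was -0.01. The smallest p-values were those of the filament protein Vim, which rose by 1.04 (SE 0.14, limma adjusted p = 0.00045), the collagen-binding protein Sparc (0.58, SE 0.084, 0.00080) and the collagen cross-linking enzyme Loxl1 (0.60, SE 0.12, 0.0057). Vim had 64.2, 66.2, 51.5 and 72.4 in the ZL rats and 184, 120.2, 119 and 111 in the ZF rats. Called as well, and named here beyond the rule for naming genes, were Cd34, Col1a1, Col6a2, Fmod, Mgp, Pi16, Scara5, Tcf21 and Thy1. The count was between 8, without ZL rat 3, and 14, without ZF rat 5. The reads came from whole cortex, and the source of these genes among fibroblasts and other cells was not tested.

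In ZF-SGLT2i against ZF 0 of the 26 were higher and 7 lower, with a median of -0.50, where 1.39% and 1.75% of all genes were higher and lower and their median was 0.01. Col3a1, the fibrillar collagen III of loose interstitium, fell by 1.03 (SE 0.17, limma adjusted p = 0.0055). It had 178, 119.9, 171 and 106 in the ZF rats and 81.1, 72.1, 63.4 and 57.7 in the treated rats. Dpt, which codes for the matrix protein dermatopontin, fell by 0.57 (SE 0.10, adjusted p = 0.0083), and Fbln5, an elastic fiber protein, by 0.57 (SE 0.12, adjusted p = 0.019). Col1a2, Cd34, Loxl1 and Tnc were also lower, while Col1a1 was at -0.75 with an adjusted p of 0.055. The count was 2 or 3 without ZF rats 2, 3 or 4 or ZF-SGLT2i rats 3, 4 or 6, and 12 without ZF rat 5. Without ZF rat 4, 1 of the 3 was higher.

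Against ZL, the treated rats had 7 of the 26 fibroblast genes higher and 6 lower, with a median of 0.01, where 12.4% of all genes were higher and 15.0% lower. The same shares of all genes apply to the pericyte and smooth muscle lists. The higher genes with the smallest p-values were Vim (0.95, SE 0.14, limma adjusted p = 0.00041), Pi16 (0.52, SE 0.12, 0.0059) and the actin-severing protein Gsn (0.50, SE 0.12, 0.0088). The lower ones were Dpt (-0.61, SE 0.10, 0.00079), Fbln5 (-0.58, SE 0.12, 0.0029) and the proteoglycan gene Ogn (-0.51, SE 0.11, 0.0045), and Fbln1, Tnc and Col3a1 were lower as well.

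Other pericyte genes numbered 19, with 16 in the table and 14 tested. In ZF against ZL 4 were higher and 1 lower, where 8.19% and 10.6% of all genes tested were. Foxd1, a transcription factor of stromal progenitors and podocytes, rose by 0.68 (SE 0.11, limma adjusted p = 0.0018), from 8.40 ± 1.29 (SD, n = 4) to 14.1 ± 1.56. Notch3 (0.51, adjusted p = 0.013) and Heyl (0.39, 0.017), a receptor and a target of Notch signaling in mural cells, and the adhesion molecule Mcam (0.59, 0.020) were higher, and the transcription factor Foxs1 was lower (-0.42, 0.032). No gene of the list was called lower without ZL rats 1, 2 or 4 or ZF rats 3 or 5, and the count of called genes was 3 without ZF rat 3. In ZF-SGLT2i against ZF 0 were higher and 2 lower, where 1.39% and 1.75% of all genes were. Abcc9, a subunit of the potassium channel of mural cells, fell by 0.41 (SE 0.10, adjusted p = 0.041), and the ligand gene Angpt1 by 0.63 (SE 0.15, adjusted p = 0.034). Neither was called without ZL rat 1, ZF rats 3 or 4 or any 1 of the treated rats, where the count was 0, and it was 1 without ZL rat 2 or ZF rat 2. Against ZL, Foxd1, Mcam and Notch3 were higher in the treated rats and Angpt1 lower, while 2 were higher and 3 lower without ZL rat 3, and 2 and 2 without ZF rat 2. Rgs5, a marker of pericytes, had means of 6.83, 9.30 and 5.77 with no call.

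Other smooth muscle genes numbered 26, with 24 in the table and 21 tested. All 21 had log2 fold changes above 0 in ZF against ZL, with a median of 0.29 against -0.01 over all genes tested. Of the 21, 6 were called higher and 0 lower, where 8.19% and 10.6% of all genes were. Actn1, which codes for an actin crosslinker found in many cells, rose by 0.50 (SE 0.074, limma adjusted p = 0.00082). It was followed by the LIM protein gene Csrp1 (0.39, SE 0.073, 0.0033) and the filamin gene Flna (0.59, SE 0.13, 0.0093), and Itga8, Tpm1 and Tpm2 were called too. The count was 3 without ZL rat 3 or without ZF rat 2. In ZF-SGLT2i against ZF 0 were higher and 2 lower, where 1.39% and 1.75% of all genes were. Actn1 fell by 0.59 (SE 0.074, adjusted p = 0.00085) and the tropomyosin gene Tpm2 by 0.69 (SE 0.15, adjusted p = 0.025). The count was between 1 and 4 when a rat was left out: 1 without ZF rats 2 or 3 or ZF-SGLT2i rats 3, 4 or 6, and 4 without ZL rats 3 or 4 or ZF rat 5. Actn1 had 105, 89.8, 95.9 and 83.2 in the ZF rats, and 64.5, 63.4, 59.5 and 58.3 in the treated rats, close to the 61.8 to 72.4 of the ZL rats. Against ZL Csrp1 was the single gene called, higher by 0.36 (SE 0.073, adjusted p = 0.0033); without ZL rat 3 another 2 were lower.

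**Figure D4:**
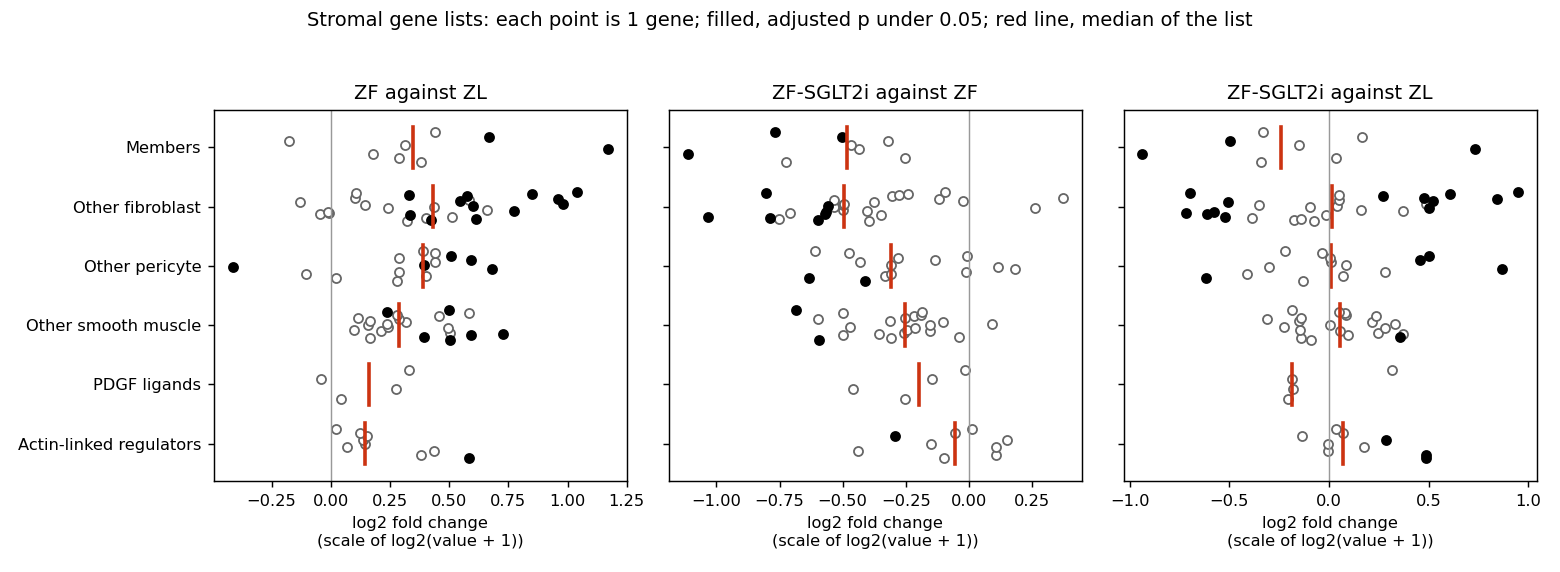
Log2 fold changes (horizontal axes, scale of log2(value + 1)) of the tested genes of 6 stromal lists in the 3 comparisons. Each point is 1 gene, filled where the adjusted p was under 0.05, and red lines are list medians. The median of other fibroblast genes was 0.43 in ZF against ZL, -0.50 in ZF-SGLT2i against ZF and 0.01 in ZF-SGLT2i against ZL.

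The genes of the set were also compared with each other from rat to rat, after the mean of each group had been removed, over 12 rats. All 45 pairs had a Pearson r above 0, and 13 pairs had a Benjamini-Hochberg adjusted p under 0.05 for both Pearson r and Spearman rho (exact permutation within groups). Pdgfra and Dcn, both fibroblast genes, had the highest r, 0.965 (rho 0.958, exact permutation p = 0.00014 and 0.00022, adjusted p = 0.0065 and 0.0098). It was 0.957 without the 2 rats farthest from the median of Pdgfra. Acta2, Tagln, Des, Myh11 and Pdgfrb formed 10 pairs, and all 10 passed, with r from 0.805 to 0.950 and rho from 0.783 to 0.951. Their exact permutation p ranged from 0.00051 to 0.0056 for r and from 0.00058 to 0.014 for rho, and the adjusted p were at most 0.023 and 0.049. Without the 2 farthest rats their lowest r was 0.619, for Pdgfrb and Tagln. The other 2 pairs that passed were Lum with Cnn1 (r = 0.873) and Tagln with Dcn (r = 0.846). Pdgfra and Pdgfrb had r = 0.696 and did not pass (exact permutation, adjusted p = 0.078). Postn had the lowest coefficients, between 0.130 and 0.497, and it has few reads. The genes share their library and its depth in each rat, and ZL rat 3 and ZF rat 5 were low in most of them. The share of all gene pairs with such coefficients is not given here, so the counts of pairs are not set against other genes.

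**Figure D5:**
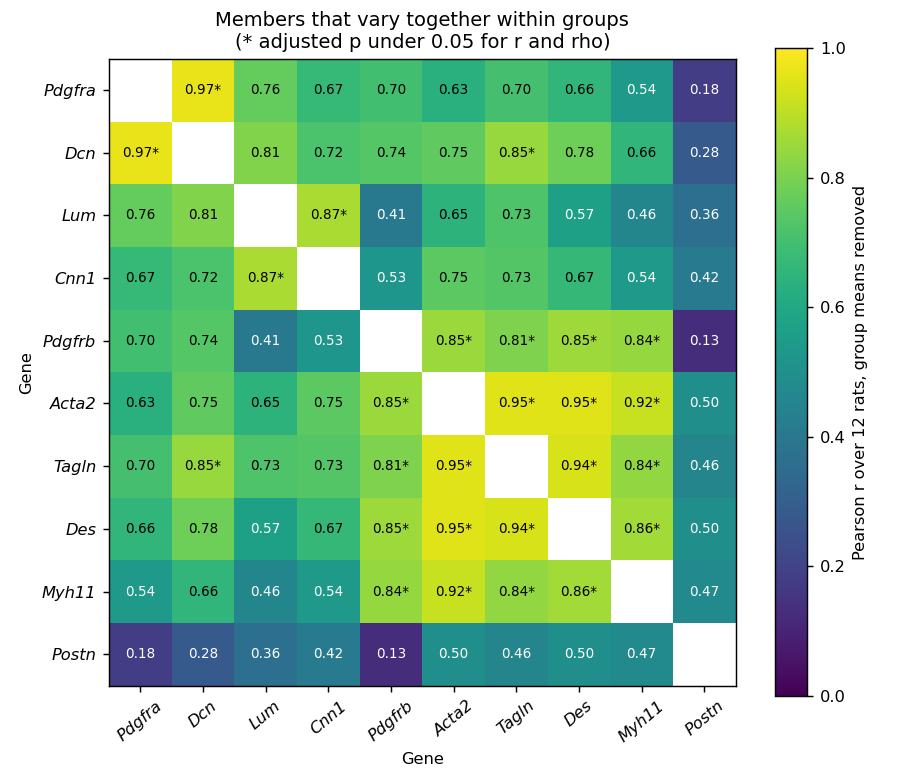
Pearson r between the 10 stromal genes (both axes) over 12 rats after removal of group means. Color and number give r, and a star marks an adjusted p under 0.05 for both r and rho. Acta2, Tagln, Des, Myh11 and Pdgfrb form a block of starred pairs, and the r of Pdgfra with Dcn is 0.97.

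Among the 9850 other genes with a mean value of at least 5, the 2 whose group-centered values were most like Acta2 were Des and Tagln (r = 0.95 each). For Dcn they were Pdgfra (r = 0.965) and RGD1565033 (r = 0.953).

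Markers of other cells were measured beside these genes. Their counts are to be read against all genes tested, of which 8.19% were higher and 10.6% lower in ZF against ZL, 1.39% and 1.75% with treatment, and 12.4% and 15.0% in the treated rats against ZL. Mesangial and juxtaglomerular genes, with 7 of 8 in the table and tested, summed to 272 ± 31.2 (SD, n = 4) in ZL rats, 445 ± 26.5 in ZF rats and 385 ± 32.4 in treated rats. In ZF against ZL 3 of 7 (8.19% of all genes) were higher: Sfrp2, a secreted Wnt-binding protein and the gene of the list with the most reads in ZF, by 1.40 (SE 0.16, limma adjusted p = 0.00010), Hopx by 0.63 and Itga8, an integrin of mesangial cells that is also in the smooth muscle list, by 0.73. Agtr1a, the angiotensin II receptor, fell by 0.62 (SE 0.12, adjusted p = 0.017) in ZF-SGLT2i against ZF, from 46.8 ± 10.2 to 29.6 ± 2.7. In ZF-SGLT2i against ZL Gata3, Hopx and Sfrp2 were higher and Agtr1a lower. The part of mesangial cells in the rise of Des and Pdgfrb was not tested.

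Endothelial genes, all 13 tested, summed to 958 ± 131 (SD, n = 4), 1132 ± 67.0 and 1081 ± 129, and 3 were higher in ZF against ZL (Tie1, Egfl7 and Eng) and 4 were higher in ZF-SGLT2i against ZL (with Esam, Ehd3 and Egfl7 at the smallest p-values), where 8.19% and 12.4% of all genes were. In ZF-SGLT2i against ZF limma and edgeR called 0 of the 13, DESeq2 called 1, and 3 had an unadjusted limma p under 0.05. Kdr had the most reads. Podocyte genes, all 10 tested, summed to 1738 ± 218, 2294 ± 226 and 2355 ± 250, with Podxl at the most reads. Of these 6 were higher in ZF than in ZL, with Clic5, Nphs1 and Plce1 at the smallest p-values, and 7 in ZF-SGLT2i against ZL, where 8.19% and 12.4% of all genes were. Limma, edgeR and DESeq2 called 0 podocyte genes with treatment, where 2 had an unadjusted limma p under 0.05. Macrophage genes, 9 of 10 tested, summed to 221 ± 32.4, 315 ± 58.8 and 278 ± 92.0, and Lyz2 and Csf1r had the most reads. Limma called 0 in each comparison, with 3, 1 and 0 at an unadjusted p under 0.05, and edgeR and DESeq2 each called 1 in ZF against ZL and 0 in the others. Of 9 lymphocyte genes 3 were tested, with Cd4 at the most reads, and Cd2 was lower in ZF-SGLT2i than in ZL. The part of these cells in the stromal results was not tested.

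Tubule genes moved as well. Injured tubule genes, 9 of 10 tested, summed to 789 ± 59.5 (SD, n = 4) in ZL rats, 1631 ± 652 in ZF rats and 1376 ± 327 in treated rats. In ZF rats 2 and 4, the rats highest in the stromal genes, the sum was 2421 and 1909, against 1143 and 1052 in ZF rats 3 and 5, and the part of tubule injury in the stromal values was not tested. Spp1 had the most reads in ZF, and 6 of the list were higher in ZF against ZL, led by Clu (1.12), Havcr1 (3.01) and Krt8 (0.41), where 8.19% of all genes were. In ZF-SGLT2i against ZL 6 of the 9 were higher and Vcam1 lower, where 12.4% and 15.0% of all genes were. Vcam1 was lower in the treated rats than in ZF, by 0.67 on the log2 scale. Proximal tubule genes summed to 18773 ± 2078 in ZF and 16773 ± 1753 in ZF-SGLT2i, against the ZL value above. Of the 10, Slc22a6 was higher and Aqp1 and Slc27a2 lower in ZF against ZL, and Slc27a2 was higher and Slc22a6 lower in ZF-SGLT2i against ZF. Lrp2 and Slc34a1 were lower in the treated rats than in ZL. Thick limb and distal genes, 6 of 8 tested, summed to 7248, 7503 and 7317, and Slc12a3 was higher and Umod lower in ZF-SGLT2i than in ZL.

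Collecting duct genes, all 8 tested, summed to 1607, 2055, 1663 and 1308 in the ZL rats, 1703, 1991, 1447 and 2107 in the ZF rats, and 2280.1, 2447, 2416 and 2660.4 in the treated rats, so that the treated rats were above all others. Aqp2, the vasopressin-regulated water channel and the gene of the list with the most reads in the treated rats, was higher in ZF-SGLT2i against ZF by 0.62 (SE 0.16, limma adjusted p = 0.0495), while edgeR called 0 and DESeq2 3 of the 8 there, and 5 had an unadjusted limma p under 0.05. Against ZL 5 of the 8 were higher in the treated rats, and 12.4% of all genes. Aqp4, of the inner medulla and urothelium list, was also higher in the treated rats than in ZL. The share of reads on ribosomal RNA genes was 11.5% to 15.2% in the treated rats, 8.82% to 12.0% in ZF and 7.25% to 12.0% in ZL. These values moved with the treated group in the same rats in which Dcn, Tagln and Pdgfrb were low, and their part in those results was not tested.

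Of 6 capsule and mesothelium markers listed 3 were in the table, Msln was at 0.0888, 0.148 and 0.106, and the sums were 12.5 ± 6.79 (SD, n = 4), 9.82 ± 3.20 and 10.5 ± 3.46, with Krt19 at the most reads and Rspo1 alone called (higher in ZF-SGLT2i than in ZL). Of 6 adipocyte genes 3 were tested, with Lpl at the most reads, and Cidec and Lpl were lower in both ZF groups than in ZL. Of 8 blood genes 4 were tested and limma called 0, with Slc4a1, which is also a collecting duct gene, at the most reads, and Hba1 and Hbb at group means of 0.939 to 8.09. Among the blood genes 2, 1 and 2 had an unadjusted p under 0.05 in the 3 comparisons, edgeR called 0, 0 and 2 and DESeq2 called 1 in each.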

How the data were processed

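RNA of the renal cortex of 12 rats was sequenced by the study after depletion of ribosomal RNA, with directional paired-end libraries. The authors deposited a table of signal values for 13151 genes. Per the labels' processing notes, which give no order or role, Trimmomatic 0.38, Bowtie2, RSEM 1.3.0, edgeR and the build rn6 were used. Within a rat all values were multiples of the same constant, which matched edgeR's CPM with TMM factors (largest gap 9.7e-17). The values are therefore called normalized read counts, and the whole reads were recovered by division. Depth was 8824980 to 12210257 reads per rat, which leaves genes with few reads imprecise.

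Genes at 1 or above in 4 or more rats (11633) were tested on the scale log2(value + 1) with limma 3.58.1 (R 4.3.3). The 3 groups entered a shared fit with a trended prior, p-values were two-sided and were adjusted over all genes tested by the Benjamini-Hochberg method, and calls were made at an adjusted p under 0.05. Exact permutation tests used all 70 assignments of 4 rats against 4. edgeR 4.0.16 and DESeq2 1.42.0 were run on the reads as alternatives. The tests were also run on simulated data with known changes, and the outcome is not reported here. Named from the other lists were called genes, at most the 3 with the smallest p per direction set out with values, and the gene with the most reads (not per length). Likeness to Acta2 and Dcn was ranked by group-centered Pearson r. Promoters came from RefSeq (GRCr8). Some listed symbols, such as Mrtfa and Mrtfb, were not analysed here, and a gene of the mesangial and juxtaglomerular list was taken out of it and is not reported here. The genes and lists were chosen with earlier results of these data known. No 2 rats of the same group were copies of each other, and pairs from different groups were not checked for this. Coordinates of rn6 were not used here, and reads shared between similar genes, or between Dcn or Des and the long noncoding RNA genes that overlap them, could not be separated.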

Additional observations from a re-analysis of the deposited data

Results flagged for a closer look

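Pdgfra in ZL rat 3 lay apart from its group, at a normalized read count of 133 against 153 to 156 in the other 3 ZL rats. The gap was 0.875 of the range of the group, above Dixon's 95% critical value for 4 samples. It was the single such value among 30 sets of 4 rats (10 genes in 3 groups), where chance gives about 1 in 20. ZL rat 3 had the fewest reads of its group, 8886901. The fall of Pdgfra in ZF-SGLT2i against ZL passed the test with and without it.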

How the results depend on the processing

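The calls of Pdgfrb and Des in ZF against ZL, of Dcn in ZF-SGLT2i against ZF and of Pdgfra and Dcn in ZF-SGLT2i against ZL passed the test in all 21 alternatives, which were a pseudocount of 0.1, no filter, a mean value of at least 10, median-ratio scaling, quantile normalization, a fit restricted to the compared groups, the rat number as a block, edgeR, DESeq2 and the fits without each rat. Of 501 values of single genes, 474 kept direction and side of the threshold, 17 lost and 3 gained a call, and 7 changed sign. The sign changes were those of Cnn1 in ZF-SGLT2i against ZL, at -0.026 with quantile normalization and -0.10 to 0.18 without 1 rat, and of Myh11 in that comparison, at -0.39 to 0.080 without 1 rat. Quantile normalization gave 1103 genes higher and 942 lower in ZF against ZL, in place of 953 and 1232. DESeq2 called 641 genes in ZF-SGLT2i against ZF in place of 366, with 13 other fibroblast and 4 other smooth muscle genes, and the fit of the groups compared called 5 of the latter. Leaving out 1 rat gave 1384 to 2453 genes called in ZF against ZL, 176 to 569 in ZF-SGLT2i against ZF and 2238 to 3302 in ZF-SGLT2i against ZL, and 1 to 4 of the stromal set in ZF-SGLT2i against ZF. It gave 2 to 12 other fibroblast, 0 to 2 other pericyte and 1 to 4 other smooth muscle genes in that comparison. In ZF against ZL it gave 3 to 6 pericyte and 3 to 6 smooth muscle genes, and in ZF-SGLT2i against ZL 1 to 3 smooth muscle genes. The cause of these changes was not tested. The alternatives for the other lists were added after the data had been seen.

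Rats of different groups share numbers but are not stated to be paired, and same-number deviations correlated between -0.376 and 0.253 over 9 pairs. With the rat number as a block, 807, 223 and 1502 genes were called in the 3 comparisons in the order above. The block called Dcn in ZF against ZL (0.45, limma adjusted p = 0.033) and Pdgfra in ZF-SGLT2i against ZF (-0.44, adjusted p = 0.022), and did not call Tagln in ZF-SGLT2i against ZF (-0.90, 0.054) or Des in ZF-SGLT2i against ZL (0.73, 0.063). It called 2, 0 and 1 other pericyte genes in the 3 comparisons, 1 other smooth muscle gene in ZF-SGLT2i against ZF and 8 other fibroblast genes in ZF-SGLT2i against ZL. Lum, Postn and Cnn1 had at most 37 reads in a rat, which limits what can be said of them.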
